A study of Homo sapiens with 4 samples.

Results

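The proteasome is the barrel-shaped protease that degrades proteins tagged with ubiquitin. Its subunits and assembly factors were taken as the protein-coding genes of the deposited expression table whose symbol is PSMA, PSMB, PSMC, PSMD, PSME, PSMF or PSMG followed by a number, together with POMP and ADRM1, which gave 49 of 32673 genes. They were compared between imatinib-sensitive TF1-BA cells and imatinib-resistant TF1-BAR cells, both derived from TF1, a human erythroleukaemia line that depends on GM-CSF, and both carrying the BCR-ABL fusion kinase that imatinib inhibits. Each line was sequenced in 2 libraries from 10000000 cells per replicate. Both were grown in 10% serum with GM-CSF, at 2 ng/mL by the labels and at a higher concentration by the study's methods, and only the TF1-BAR culture also received 2 uM imatinib, so that resistance and the presence of the drug cannot be told apart. The titles of the TF1-BAR libraries contain the word vector, which the labels do not explain. Each group is 1 cell model, and the sources do not say whether the replicates were separate cultures, so that p-values measure the spread between these libraries, which may be technical.

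The 20S core particle is a stack of rings. The outer rings hold the alpha subunits and form the gate, and the inner rings hold the beta subunits, of which PSMB6 (beta1), PSMB7 (beta2) and PSMB5 (beta5) cut the substrate. In cells exposed to interferon, PSMB9, PSMB10 and PSMB8 replace them and form the immunoproteasome, which favours peptides for presentation on MHC class I. The 19S regulatory particle, built of PSMC ATPases and PSMD subunits, recognises ubiquitin, unfolds the substrate and feeds it into the core, and other caps (PSME1 to PSME4) or the inhibitor PSMF1 can take its place. When proteasome activity falls, the transcription factor NRF1 (NFE2L1) raises the transcription of the subunit genes together. The study treated cells with the proteasome inhibitor MG132, which makes the level of the subunit genes in both lines relevant to it.

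The depth of the libraries was 18042299 and 15465497 fragments for TF1-BA and 15761642 and 16074303 for TF1-BAR, as recovered from the values. The values are FPKM, fragment numbers divided by a length for each gene and by library depth. For 14114 genes that length was the exon bases of GENCODE 44, so that levels compared between genes depend on the annotation. Of the 10 markers that define TF1 cells, CD34, KIT, CD33, TAL1 and GATA2 were higher in TF1-BAR (limma adjusted p < 0.05) and none was lower. Of markers of other cells, CD3E, CD14, EPCAM and COL1A1 lay between 0 and 0.429 FPKM in every library, and MS4A1 was not analysed here. The part of these markers in the results below was not tested.

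The promoters of the genes that the inducible and cap results turn on are shown for what they share in sequence. The windows run from 250 bases before to 50 bases after a start site (RefSeq, GRCh38.p14), written in the direction of the gene. 43 of the 49 members had a window. Capitals mark the core of the interferon-stimulated response element, GAAA and again GAAA with a pair of free bases (NN) between, or on the other strand TTTC and TTTC with the same gap.
PSMB8 (beta5i, minus strand, chr6:32843998-32844297): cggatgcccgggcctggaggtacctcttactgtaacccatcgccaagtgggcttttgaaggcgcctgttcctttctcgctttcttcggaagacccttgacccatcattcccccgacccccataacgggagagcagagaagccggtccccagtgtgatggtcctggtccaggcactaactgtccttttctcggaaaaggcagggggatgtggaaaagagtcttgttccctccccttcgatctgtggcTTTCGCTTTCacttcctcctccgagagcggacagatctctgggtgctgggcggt
PSMB10 (beta2i, minus strand, chr16:67936801-67937100): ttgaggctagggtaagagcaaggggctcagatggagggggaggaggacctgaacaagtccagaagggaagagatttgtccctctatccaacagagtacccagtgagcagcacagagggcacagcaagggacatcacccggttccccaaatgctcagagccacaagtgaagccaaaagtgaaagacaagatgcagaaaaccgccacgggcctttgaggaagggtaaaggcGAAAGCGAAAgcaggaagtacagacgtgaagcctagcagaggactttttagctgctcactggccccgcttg
PSMB9 (beta1i, plus strand, chr6:32853942-32854241): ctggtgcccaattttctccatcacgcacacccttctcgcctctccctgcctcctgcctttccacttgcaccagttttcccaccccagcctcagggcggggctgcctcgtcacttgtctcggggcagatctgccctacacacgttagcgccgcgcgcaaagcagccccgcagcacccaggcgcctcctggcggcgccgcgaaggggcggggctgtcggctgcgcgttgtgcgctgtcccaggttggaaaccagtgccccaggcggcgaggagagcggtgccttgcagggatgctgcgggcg
TAP1 (peptide transporter, minus strand, chr6:32853655-32853954): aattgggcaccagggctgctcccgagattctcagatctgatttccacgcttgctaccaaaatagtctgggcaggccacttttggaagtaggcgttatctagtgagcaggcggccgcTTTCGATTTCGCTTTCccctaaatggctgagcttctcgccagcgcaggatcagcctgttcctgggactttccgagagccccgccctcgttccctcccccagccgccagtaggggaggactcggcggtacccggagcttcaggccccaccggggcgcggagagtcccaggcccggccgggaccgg
PSME1 (cap subunit, plus strand, chr14:24135944-24136243): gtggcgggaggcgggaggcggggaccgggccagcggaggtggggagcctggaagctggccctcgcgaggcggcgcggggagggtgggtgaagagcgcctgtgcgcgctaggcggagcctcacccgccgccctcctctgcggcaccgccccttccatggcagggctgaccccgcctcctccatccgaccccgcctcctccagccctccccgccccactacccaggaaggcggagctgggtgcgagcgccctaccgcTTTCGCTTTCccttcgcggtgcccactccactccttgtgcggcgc
PSME2 (cap subunit, minus strand, chr14:24146561-24146860): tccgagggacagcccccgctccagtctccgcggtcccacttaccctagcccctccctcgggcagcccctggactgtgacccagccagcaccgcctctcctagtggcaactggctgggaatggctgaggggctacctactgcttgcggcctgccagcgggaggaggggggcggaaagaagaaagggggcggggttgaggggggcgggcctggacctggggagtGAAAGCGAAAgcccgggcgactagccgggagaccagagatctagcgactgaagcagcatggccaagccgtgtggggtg

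The motif was found on either strand in the windows of 7 of 43 members (16.3%), namely PSME1, PSME2, PSMB8, PSMB10, PSMA4, PSMB4 and PSMG4, and in 4.38% of 27305 genes in the table. PSMB8 has a further window upstream that holds no match. No match lies in the PSMB9 window, but the printed TAP1 window, 1 of 2 in the table (the other holds no match), is transcribed away from PSMB9, shares 13 bases with its window and holds a pair of overlapping matches 354 to 369 bases before the PSMB9 start site. The core of the antioxidant response element, TGANNNNGC, to which NRF1 and NRF2 bind, was in a window of 65.1% of the 43 members and of 47.1% of all genes. CCAAT, the box bound by NF-Y, was in a window of 46.5% of members and 39.7% of genes, and a loose form of the NF-kB site, GGG and CC with NNNNN between, of 74.4% and 61.7%. Counted over the 53 windows of members and the 35116 of the table, the shares were 62.3% and 41.8% for TGANNNNGC, 39.6% and 34.6% for CCAAT and 66.0% and 58.7% for the NF-kB form. Both strands were searched for each motif. These are matches of letters, not binding sites.

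The subunit genes were mostly lower in the resistant cells, by small amounts. 46 of the 49 members passed the filter on low values, and 14 of them were lower and 3 higher in TF1-BAR at a limma adjusted p < 0.05. The background was 10.5% of all 15519 genes tested called lower and 16.3% called higher, or 12.5% and 16.6% of the 11685 protein-coding genes, so that the members' share of lower calls (30.4%) lay above it and that of higher calls (6.52%) below it. No member was also changed by 1 or more on the log2 scale in either direction, while 4.75% of all genes met both limits. The median log2 fold change of the tested members was −0.15, against 0.07 over all genes and 0.04 over protein-coding genes. In 30 members both TF1-BAR libraries lay below both TF1-BA libraries and in 7 above, that is 65.2% and 15.2%, against 28.4% and 40.9% of all genes. The FPKM of the members summed to 1566 and 1555 in TF1-BA and to 1402 and 1376 in TF1-BAR. In RNA from whole cultures, less RNA per cell and fewer cells of a type cannot be told apart.

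The number of calls depended on single libraries. Without TF1-BA replicate 1 or replicate 2, in fits where the remaining library is assumed to vary like the other group, 0 members were called in either direction, and 144 and 42 genes were called in all. Without TF1-BAR replicate 2, 3 members (PSMB3, PSMB8 and PSMA4) were lower and 0 higher. Without TF1-BAR replicate 1, 15 were lower and 2 higher. With the median log2 fold change of each chromosome taken out, 20 members were lower and 0 higher, and the split of calls over all genes went from 2537 higher and 1630 lower to 1746 and 1827. Quantile normalization gave 2042 higher and 1938 lower genes and 3 higher and 12 lower members.

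**Figure D1:**
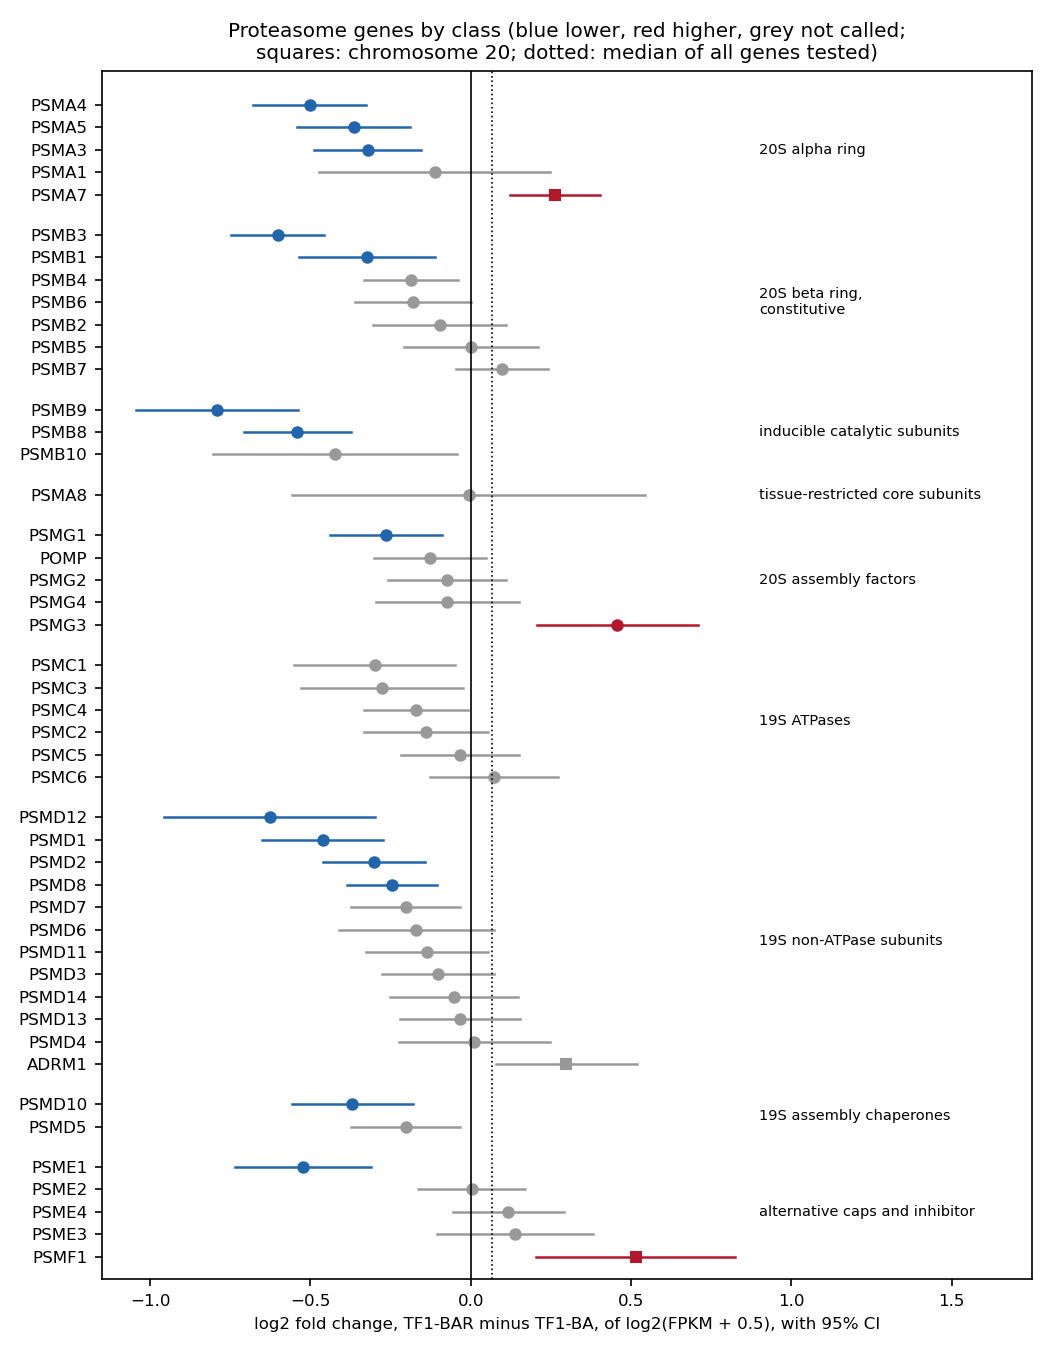
The log2 fold change of each of the 46 tested members (TF1-BAR minus TF1-BA, on the log2(FPKM + 0.5) scale) with its 95% confidence interval, by class. Blue, red and grey are members called lower (14), called higher (3) and not called (29), squares lie on chromosome 20, and the dotted line is the median of all genes at 0.07. The points run from −0.79 in PSMB9 to 0.51 in PSMF1.

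The inducible catalytic subunits had the lowest median of the classes, −0.54 over the 3 genes. Each of the 3 had both TF1-BAR libraries below both TF1-BA libraries, against 28.4% of all genes. PSMB9, the inducible beta1 subunit (chr6:32844136-32859585, plus strand), was at 4.17 and 4.21 FPKM in TF1-BA and at 2.33 and 2.09 FPKM in TF1-BAR. That is a log2 fold change of −0.79 ± 0.10 (SE), with an adjusted p of 0.00953, and rests on 231 and 200 against 113 and 103 fragments. It was the member that fell the most.

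PSMB8, the inducible beta5 subunit (chr6:32840717-32844703, minus strand), gave 22.5 and 22.6 FPKM in TF1-BA and 15.7 and 15.1 FPKM in TF1-BAR. Its log2 fold change was −0.54 ± 0.06 (SE, adjusted p = 0.00901). The gap between the groups was many times the difference between replicates. The gene spans of PSMB8 and PSMB9 overlap by 568 bases on opposite strands, 17.3% of the exon bases of PSMB8 are shared with the antisense gene PSMB8-AS1, and the strand used in counting is not given in the sources used here. Without TF1-BA replicate 1 or replicate 2, the adjusted p of PSMB9 was 0.0855 and 0.0890, and without TF1-BAR replicate 2 it was 0.0507. For PSMB8, it was 0.0879 and 0.0916 without TF1-BA replicate 1 or 2.

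PSMB10, the inducible beta2 subunit (chr16:67934502-67937087), was weakly expressed, at 1.73 and 1.40 FPKM against 1.03 and 1.04 FPKM. The groups did not overlap, but the log2 fold change of −0.42 ± 0.15 (SE) missed the threshold with an adjusted p of 0.0935. It rests on 58 and 40 against 30 and 31 fragments, and 39.4% of its exon bases are shared on the same strand with a read-through gene, so that its level is uncertain.

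None of their constitutive partners was called. PSMB5 (beta5) was at 40.9 and 37.2 FPKM in TF1-BA and 37.4 and 40.7 FPKM in TF1-BAR, fully overlapping, with a log2 fold change of 0.00 and a 95% confidence interval from −0.21 to 0.21. PSMB6 (beta1) had 26.3 and 27.7 against 24.4 and 23.0 FPKM, a log2 fold change of −0.18 (adjusted p = 0.118). PSMB7 (beta2) had 55.2 and 54.9 against 58.7 and 59.1 FPKM, a log2 fold change of 0.10 (adjusted p = 0.244).

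As a share of the summed FPKM of the pair, the inducible subunit was lower in both TF1-BAR libraries in each of the 3 pairs. The share of PSMB9 with PSMB6 was 13.4% ± 0.35 (SD, n = 2) in TF1-BA and 8.51% ± 0.29 (SD, n = 2) in TF1-BAR. The share of PSMB8 with PSMB5 was 36.7% ± 1.6 (SD, n = 2) against 28.3% ± 1.8 (SD, n = 2). The share of PSMB10 with PSMB7 was 2.76% ± 0.40 (SD, n = 2) against 1.72% ± 0.0078 (SD, n = 2).

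Over the 3 pairs together, inducible subunits made up 18.9% and 19.1% of the summed FPKM in TF1-BA and 13.6% and 12.9% in TF1-BAR. The difference was −5.70 percentage points. Such shares depend on the length by which the fragments of each gene were divided. In each of the 4 measures the groups did not overlap. The exact two-sided permutation p was 0.333 for each, and 0.333 after adjustment over the 4, which is the smallest p that 2 against 2 libraries allow.

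**Figure D2:**
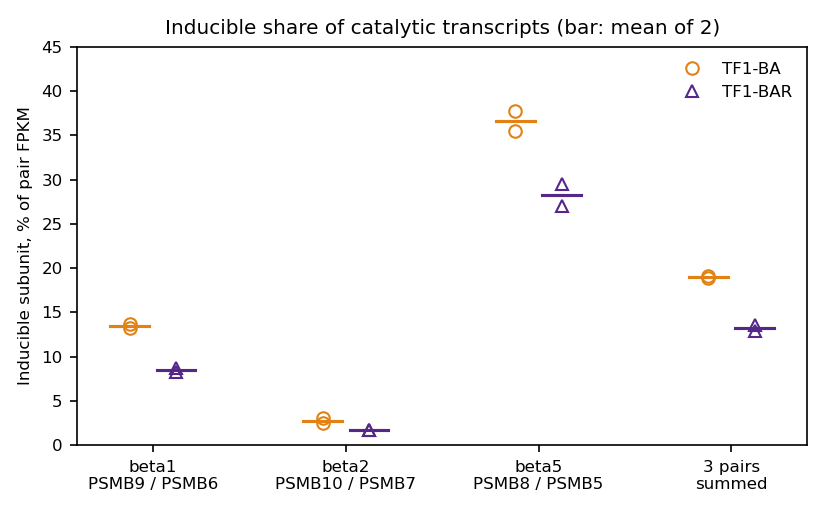
The inducible subunit as a percent of the FPKM of its catalytic pair in each library, for the 3 pairs and their sum. Circles are TF1-BA and triangles TF1-BAR libraries, and bars are means of 2. In every column both triangles lie below both circles, and for the sum the values are 18.9% and 19.1% against 13.6% and 12.9%.

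Of the other subunits of the beta ring, 2 fell, against 10.5% of all genes, and the rest did not pass the test. PSMB3 (beta3, chr17:38752736-38764231), a structural subunit, was at 62.1 and 61.6 FPKM in TF1-BA and 40.9 and 40.3 FPKM in TF1-BAR. Its log2 fold change of −0.60 ± 0.06 (SE) had the lowest adjusted p of the members, 0.00603. The replicates of each group differed by under 1 FPKM.

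PSMB1 (beta6) had 76.7 and 74.0 against 64.2 and 56.3 FPKM, a log2 fold change of −0.32 (adjusted p = 0.0446). This call was lost in TPM (adjusted p = 0.0708), after quantile normalization (0.0671) and without TF1-BAR replicate 2 (log2 fold change −0.23, adjusted p = 0.0884). PSMB2 and PSMB4 gave log2 fold changes of −0.10 and −0.19, with adjusted p of 0.402 and 0.0696. The class median was −0.18 over 7 genes.

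In the alpha ring, 5 of 7 genes were tested, of which 3 fell and 1 rose, against 10.5% and 16.3% of all genes. PSMA4 (alpha3) was at 48.0 and 47.1 FPKM against 34.8 and 32.1 FPKM, a log2 fold change of −0.50 (adjusted p = 0.0113). PSMA5 (alpha5) was at 15.2 and 15.7 against 12.1 and 11.7 FPKM, −0.37 on the log2 scale (adjusted p = 0.0223). PSMA3 (alpha7) was at 30.7 and 31.1 against 25.3 and 23.9 FPKM, −0.32 on the log2 scale (adjusted p = 0.0265). In all 3, the highest TF1-BAR library lay below the lowest TF1-BA library.

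PSMA7 (alpha4, chr20:62136735-62143440) rose from 77.0 and 78.9 FPKM to 94.1 and 93.2 FPKM, a log2 fold change of 0.26 ± 0.05 (SE, adjusted p = 0.0279). PSMA1 (alpha6) gave overlapping values of 2.99 and 2.90 against 3.08 and 2.34 FPKM. 26.7% of its exon bases are shared on the same strand with a read-through gene, and the other tested alpha subunits were listed at 11.7 FPKM or more in every library.

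PSMA2 (alpha2) and PSMA6 (alpha1) did not pass the filter on low values, and neither did PSMD9, a chaperone of 19S assembly. PSMA2 was at 0.353 and 0.448 against 0.285 and 0.210 FPKM. PSMA6 was at 0.247 and 0.258 against 0.322 and 0.210 FPKM. PSMD9 was at 0.0758 and 0.0737 against 0.0651 and 0.0425 FPKM, on 6 to 12 fragments. Every core particle needs its alpha subunits, yet these values are far below those of the other rings. In GENCODE 44, 17.2%, 14.1% and 14.9% of the exon bases of PSMA2, PSMA6 and PSMD9 are shared on the same strand with read-through protein-coding genes, as for PSMA1 and PSMB10. In no other member did this share exceed 10%. How the authors' counting split these reads was not tested, and the values of these 5 genes are uncertain.

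PSMA8, the alpha subunit of testis, was listed at 1.93 and 1.502 against 2.11 and 1.35 FPKM, on 41 to 66 fragments, with overlapping groups. PSMB11, the catalytic subunit of the thymus, was not analysed here.

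The assembly factors of the 20S core moved in both directions. PSMG1, a chaperone of alpha ring assembly, was at 137 and 129 FPKM against 115 and 107 FPKM, a log2 fold change of −0.26 (adjusted p = 0.0447). It lost its call in 8 alternatives, among them TPM (limma adjusted p = 0.0830) and quantile normalization (0.0550). With each library left out, its log2 fold change ran from −0.32 to −0.21. PSMG3, which acts with PSMG4 in a second chaperone pair, rose from 20.7 and 18.6 FPKM to 25.3 and 28.9 FPKM, a log2 fold change of 0.46 ± 0.10 (SE, adjusted p = 0.0299). Its partner PSMG4 gave −0.07 and the partner of PSMG1, PSMG2, also −0.07. POMP, which joins the beta subunits to the alpha ring, gave −0.13 (adjusted p = 0.220). Without TF1-BA replicate 1 or 2, or TF1-BAR replicate 2, the adjusted p of PSMG3 was 0.111, 0.170 and 0.0987. With the median of its chromosome or of its neighbours taken out, its log2 fold change was 0.37 and 0.35 (adjusted p = 0.0528 and 0.0577).

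None of the 6 ATPases of the 19S base (PSMC1 to PSMC6) was called. Their log2 fold changes ran from −0.30 in PSMC1 to 0.07 in PSMC6 with a median of −0.16. In 4 of them both TF1-BAR libraries lay below both TF1-BA libraries, against 28.4% of all genes. 76.1% of the exon bases of PSMC1 are shared with NRDE2 on the opposite strand, so that its value is uncertain without the strand of counting.

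Among the 12 non-ATPase subunits of the 19S particle, 4 fell and 0 rose, against 10.5% and 16.3% of all genes. PSMD12, a subunit of the lid, was at 21.6 and 20.05 FPKM against 14.99 and 11.8 FPKM, a log2 fold change of −0.63 ± 0.13 (SE, adjusted p = 0.0269). PSMD1, the large scaffold of the base, was at 19.1 and 17.7 against 13.1 and 13.3 FPKM, a log2 fold change of −0.46 (adjusted p = 0.0154). PSMD2, its companion in the base, was at 66.2 and 64.3 against 54.3 and 51.4 FPKM, a log2 fold change of −0.30 (adjusted p = 0.0270). In all 3, both TF1-BAR libraries lay below both TF1-BA libraries.

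PSMD8, a lid subunit with the highest FPKM of all members, was at 217 and 223 FPKM against 189 and 182 FPKM, a log2 fold change of −0.25 (adjusted p = 0.0324; 0.0663 in TPM). PSMD4 and ADRM1, the ubiquitin receptors, were not called, with log2 fold changes of 0.01 and 0.30. ADRM1 (chr20:62302093-62308862) was at 8.98 and 9.51 against 10.9 and 12.1 FPKM, with both TF1-BAR libraries above and an adjusted p of 0.0598. PSMD14, the deubiquitinase of the lid, had overlapping groups and a log2 fold change of −0.05. The other 5 subunits (PSMD3, PSMD6, PSMD7, PSMD11 and PSMD13) ran from −0.20 to −0.03.

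Of the chaperones of 19S assembly, PSMD10 (gankyrin) fell from 20.5 and 20.3 FPKM to 16.3 and 15.03 FPKM, a log2 fold change of −0.37 (adjusted p = 0.0253). PSMD5 was at 14.5 and 14.4 against 12.5 and 12.4 FPKM, with no overlap, and its log2 fold change of −0.20 had an adjusted p of 0.0798.

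The alternative caps with the inhibitor PSMF1 were the class with a median above 0, 0.12 over 5 genes. With the medians within 2 Mb taken out it was −0.0118, the value of PSMF1 itself. The members of the class went different ways. PSME1 and PSME2 form the ring-shaped PA28 activator, which interferon raises together with the immunoproteasome. PSME1 (chr14:24136158-24138967) fell from 62.7 and 59.9 FPKM to 45.3 and 39.9 FPKM, a log2 fold change of −0.52 ± 0.08 (SE, adjusted p = 0.0152). PSME2 (chr14:24143362-24147570) was at 15.04 and 15.05 FPKM against 14.98 and 15.18 FPKM, a log2 fold change of 0.00 with a 95% confidence interval from −0.16 to 0.17.

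The genes of PSME1 and PSME2 are separated by 4394 bases, and both windows printed above hold the interferon-stimulated core. The log2 ratio of PSME1 to PSME2 was 2.06 and 1.99 in TF1-BA and 1.60 and 1.40 in TF1-BAR. The groups did not overlap, and the exact two-sided permutation p was 0.333, the smallest possible (0.417 after adjustment over 5 such ratios).

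PSME3 and PSME4, the nuclear caps PA28 gamma and PA200, were not called. PSME3 was at 26.4 and 25.1 against 26.3 and 30.7 FPKM (log2 fold change 0.14) and PSME4 at 15.1 and 14.8 against 15.9 and 16.6 FPKM (log2 fold change 0.12). PSMF1 (PI31, chr20:1113263-1189415), first described as an inhibitor of the 20S core, was at 27.8 in both TF1-BA libraries and at 35.5 and 44.8 FPKM in TF1-BAR. Its log2 fold change of 0.51 ± 0.12 (SE, adjusted p = 0.0363) was the highest of the members, although its TF1-BAR libraries differed from each other by over 9 FPKM. Without TF1-BAR replicate 2 the log2 fold change was 0.35 (adjusted p = 0.0564).

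**Figure D3:**
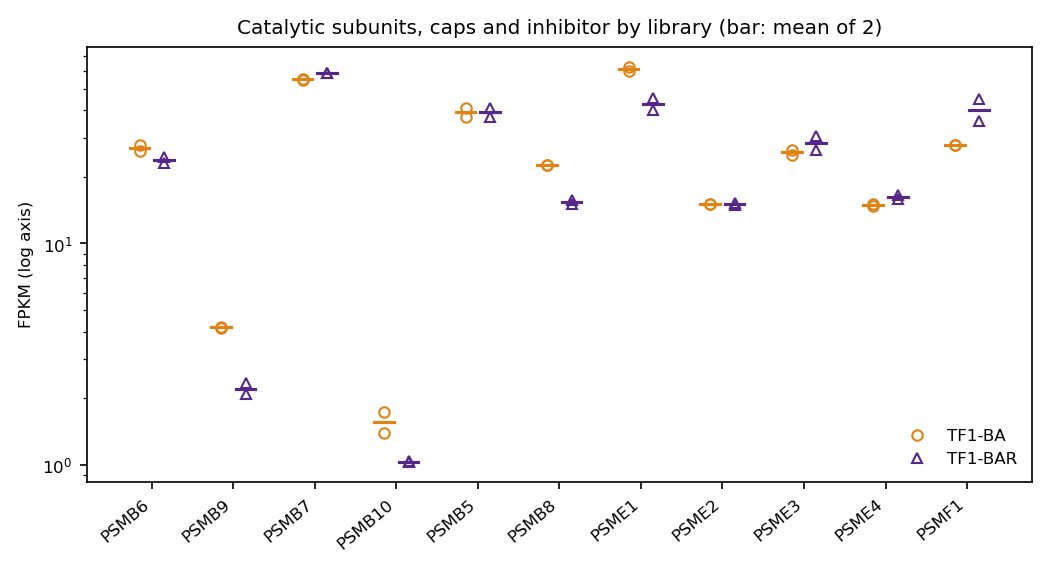
FPKM (log axis) of the catalytic subunits in constitutive and inducible pairs, the caps and the inhibitor PSMF1 in each library. Circles are TF1-BA and triangles TF1-BAR libraries, and bars are means of 2. PSMB9, PSMB8, PSMB10 and PSME1 separate with the triangles lower, PSMB5 and PSME2 overlap, and PSMF1 separates with the triangles higher.

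PSMF1, PSMA7 and ADRM1 are the members on chromosome 20, where genes were higher as a whole. The median log2 fold change was 0.39 over the 440 genes tested there, and over the genes within 2 Mb it was 0.53 for PSMF1, 0.38 for PSMA7 and 0.41 for ADRM1. With these neighbour medians taken out, PSMF1 gave −0.01, PSMA7 −0.11 and ADRM1 −0.11, none called. With the chromosome medians taken out PSMF1 gave 0.12 (adjusted p = 0.485) and PSMA7 −0.13 (adjusted p = 0.155). PSMG3 on chromosome 7, the other member called higher, had a neighbour median of 0.11. Off chromosome 20, 14 of 43 tested members were lower and 1 was higher, against 10.5% and 16.3% of all genes. The neighbour medians of the members called lower lay between −0.09 and 0.24.

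**Figure D4:**
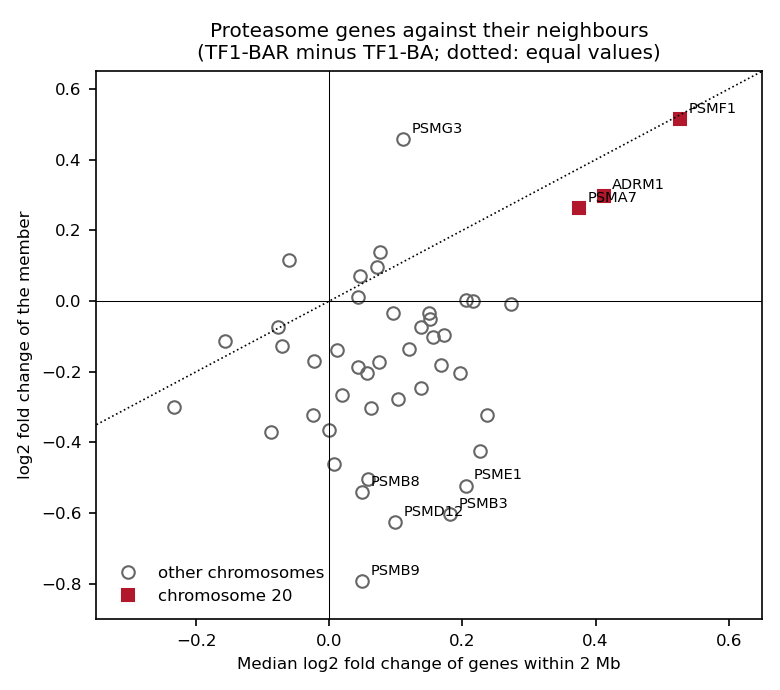
The log2 fold change of each tested member against the median log2 fold change of the genes tested within 2 Mb of it. Squares are the 3 members on chromosome 20, which lie near the dotted line of equal values with neighbour medians of 0.38 to 0.53, while PSMB9, PSMD12 and PSMB3 lie far below it.

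Genes that work with the proteasome were read from lists, against a background of 10.5% of all genes called lower, 16.3% called higher and a median log2 fold change of 0.07. Of 9 proteasome-associated proteins, UCHL5, a deubiquitinase docked on ADRM1, was lower (19.7 and 19.5 against 14.1 and 9.08 FPKM, log2 fold change −0.76, adjusted p = 0.0498) and 0 were higher, which is near the background for lower calls, and their median was 0.01. Of 9 genes of the feedback through NRF1, 3 were lower and 0 higher, with a median of −0.03. VCP, the unfoldase that extracts NRF1 and other ubiquitinated proteins, went from 80.7 and 95.3 FPKM to 49.98 and 43.5 FPKM, a log2 fold change of −0.90 (adjusted p = 0.00960). NFE2L2 (NRF2) and NFE2L3 (NRF3) fell by 0.66 and 0.36 on the log2 scale (adjusted p = 0.00776 and 0.0266). NFE2L1 itself overlapped between the lines, at 22.02 and 23.8 against 21.7 and 23.2 FPKM.

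Of 10 genes of ubiquitin supply and shuttling, 3 were lower and 1 higher, with a median log2 fold change of −0.10, where 10.5% of all genes were lower and 16.3% higher. The activating enzymes UBA1 and UBA6 gave log2 fold changes of −0.42 and −0.57 (adjusted p = 0.0271 and 0.0316), and the ubiquitin gene UBB gave −0.22 (adjusted p = 0.0440). UBQLN4, a shuttle receptor, gave 0.44 (adjusted p = 0.0269).

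The 7 partners and inducers of the immunoproteasome had a median log2 fold change of −0.50, with 4 called lower and 0 higher, against 10.5% and 16.3% of all genes. NLRC5, the transactivator of MHC class I genes, was at 3.70 and 3.47 FPKM in TF1-BA and 0.999 and 1.14 FPKM in TF1-BAR, a log2 fold change of −1.38 ± 0.11 (SE, adjusted p = 0.00514). TAP1 and TAP2, which carry the peptides into the endoplasmic reticulum, gave −0.63 and −0.50 (adjusted p = 0.0115 and 0.0163), and B2M, the light chain of MHC class I, −0.73 (adjusted p = 0.00476). TAP1 was at 4.18 and 4.17 against 2.51 and 2.53 FPKM, close to the levels of its neighbour PSMB9. IRF1, an interferon-induced activator, was at 1.59 and 1.90 against 1.00 and 1.21 FPKM (log2 fold change −0.48, adjusted p = 0.0714). TAPBP and ERAP1 gave log2 fold changes of 0.05 and 0.10 with overlapping groups. The median of all genes tested was 0.07.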

How the data were processed

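The authors discarded adaptor and low-quality sequence from 150-bp paired-end reads, mapped them to GRCh38 with TopHat 2.0.13, and ran Cufflinks and Cuffdiff 2.2.0 per their processing notes, and tested genes with DESeq2. The annotation release and the strand used in counting are not given in the sources used here. The deposited values are FPKM per gene and library, without log transformation. The test was limma (version 3.58.1, R 4.3.3) on log2(FPKM + 0.5), with the spread modelled as a trend on the mean level. Genes whose FPKM averaged 0.5 or more entered it, and p-values were adjusted by Benjamini-Hochberg over all 15519 of them. Fold changes are on that scale and understate the change of low genes. Fragments per gene were recovered by finding library sizes at which the values become whole numbers, to within 1e-04 fragments plus 2e-09 of the number. This held at GENCODE 44 exon lengths for 14114 genes. For the other 16739 the length was fitted to make the values whole, so that they are no check of the sizes. The recovered fragments of all listed genes make up 99.6% of each library. Fragments bear on counting error and on the limma voom alternative named below.

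The members, lists and motifs were chosen with earlier results of these data known. All members are named by class, with each library's value for those called, inducible, tissue-restricted or cap genes. Listed pathway genes are named where called, or for NFE2L1, TAP1, IRF1 and NLRC5, and other listed genes were named after their values were seen. Some genes of these lists are not reported here and were left out of the lists' counts. Coordinates are those of the deposited table. On data simulated with few changed genes and a fixed noise setting, the fit called most of the large changes and none of the small ones. In the real data 4167 genes were called, so that the simulation does not tell which changes can be called here. Alternatives were other pseudocounts, filters, scalings, eBayes forms, a replicate block and leaving out each library. limma voom on recovered fragments, and neighbour medians taken out of the members only, were added after seeing the data.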

Additional observations from a re-analysis of the deposited data

How the results depend on the processing

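No called member kept its call in all 17 alternatives, since 0 were called without TF1-BA replicate 1 or 2. Leaving out each library gave 0 to 2 higher and 0 to 15 lower members. No filter on low values left 0 higher and 6 lower members, and 851 higher and 595 lower of all 30853 genes. eBayes without the trend left 0 and 7 members, and 1928 and 1160 of all genes. The main fit had called 2537 and 1630 genes. Chromosome medians taken out left 0 members higher. Medians within 2 Mb, taken out of the members only, gave 0 and 22 members, with 2535 and 1639 of all genes. There the members were shifted and the other genes were not, so that the 22 have no matching background. Over 782 values of members under alternatives, 649 kept direction and call, 79 kept direction and lost the call, and 21 gained it. A further 30, in 10 members, changed sign with no call in either fit. Among them was ADRM1, at −0.092 and −0.11 with chromosome or 2 Mb medians taken out. The remaining 3 changed sign and lost the call. These were PSMA7 at −0.13 with chromosome medians taken out, and PSMA7 at −0.11 and PSMF1 at −0.012 with the medians within 2 Mb taken out.

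In this paragraph, caps means the class of the caps with the inhibitor PSMF1. The median log2 fold change of all members was −0.18 with upper-quartile scaling, −0.0898 in TPM, −0.231 with chromosome medians and −0.251 with 2 Mb medians taken out, and −0.193 to −0.154 without single libraries. In TPM it was −0.257 for the alpha ring, −0.115 for the constitutive beta ring, −0.483 for inducible subunits, −0.0898 for ATPases, −0.0945 for non-ATPase subunits, −0.225 for 19S chaperones, −0.0137 for 20S assembly factors and 0.187 for caps, while the median of all genes was 0.137. With chromosome medians taken out it was −0.238 for the constitutive beta ring, −0.596 for inducible subunits, −0.254 for ATPases, −0.236 for non-ATPase subunits, −0.349 for 19S chaperones, −0.128 for 20S assembly factors and 0.0244 for caps. With 2 Mb medians taken out it was −0.269 for the constitutive beta ring, −0.65 for inducible subunits, −0.257 for non-ATPase subunits, −0.341 for 19S chaperones and −0.0118 for caps. Upper-quartile scaling gave −0.207, −0.178 and −0.101, and quantile normalization −0.153, −0.203 and −0.114, for the constitutive beta ring, non-ATPase subunits and 20S assembly factors. limma voom on fragments gave −0.592 for inducible subunits. Without single libraries the ranges were −0.203 to −0.143 for the constitutive beta ring, −0.169 to −0.138 for non-ATPase subunits, −0.102 to −0.0713 for 20S assembly factors and 0.0281 to 0.146 for caps. The inducible share differed by −5.67 (beta1), −1.33 (beta2) and −6.13 (sum) percentage points after quantile normalization. The cause of these shifts was not tested.

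With a replicate block, 3 members were higher and 14 lower, as without it. The correlation between same-numbered deviations was 0.0646 over 15519 genes. With 2 libraries per group this does not settle whether same-numbered libraries were prepared together.

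PSMA1, PSMA8 and PSMB10 rest on 30 to 178 fragments per library, which limits the precision of their values.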

Other observations

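Also read were 19 rows whose symbols begin like those of the members but that are pseudogenes, antisense RNAs or, in the case of PSMC3IP, a protein that is no proteasome subunit. 8 of them passed the filter, PSMD10P2, PSMB8-AS1 and PSMD6-AS2 only through the cells where they were higher. These rows were looked at after their values were seen. PSMD10P2, a transcribed pseudogene of PSMD10, was covered by 1 and 0 fragments in TF1-BA and by 65 and 57 in TF1-BAR, while PSMD10 itself was lower in the TF1-BAR cells. A pseudogene can share reads with its parent, and its part in either value was not tested.

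Among antisense RNAs named after members, PSMG3-AS1 had 64 and 45 fragments against 164 and 162 (log2 fold change 1.07, adjusted p = 0.0122), in the direction of PSMG3. PSMB8-AS1 had 45 and 34 fragments against 12 and 19, and shares 17.3% of the exon bases of PSMB8, so that reads of the pair cannot be told apart without the strand of counting. PSMA3-AS1 had 541 and 444 against 712 and 627 fragments (log2 fold change 0.47, adjusted p = 0.0309), opposite to PSMA3. PSMD5-AS1, which carries the biotype of a pseudogene, was not called (log2 fold change 0.22, adjusted p = 0.132). PSMC1P1, a pseudogene of PSMC1, gave a log2 fold change of −0.73 (adjusted p = 0.0192).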
